A study of Mus musculus with 20 samples.

Results

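Akkermansia and Mucispirillum are bacterial genera that live in or close to the mucus covering the gut wall. They were selected by taxonomy, as the entries of the phyla Verrucomicrobiota and Deferribacterota that held at least 1 read in the genus and species tables. This gave 2 of 149 genera with a count and 2 of 204 species entries with a count. The 3 other genus entries of these phyla, namely Pedosphaera, Prosthecobacter and Denitrovibrionaceae with no genus name, held 0 reads in all 20 samples. All 4165 Akkermansia reads were assigned to the species entry Akkermansia muciniphila_D_776786, and all 3941 Mucispirillum reads to Mucispirillum schaedleri, so the species values equal the genus values in every mouse.

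Feces of C57BL/6 mice were profiled by sequencing a stretch of the 16S rRNA gene, which bacteria share and whose sequence tells groups of them apart. According to the methods of the study the mice were females aged 8 to 14 weeks, kept together for at least 10 days. The 10 FO mice received oxaliplatin at 3.5 mg/kg and then 5-fluorouracil (5-FU) at 50 mg/kg in 2 doses, and the 10 control mice received vehicle. Oxaliplatin and 5-FU are drugs used against colorectal cancer that also injure the dividing cells of the gut lining. Feces were taken straight from the rectum at day 5 after treatment. Each group held 5 mice of batch E53B and 5 of batch E56A, as the labels name them. The labels give no cage, no sample from before treatment and no blank library, so neither the starting level of a genus in a mouse nor the background of the assay was measured. Shares of reads were compared, which give neither the number of bacteria nor, since species differ in their copies of the 16S gene, their proportion of cells.

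Akkermansia muciniphila degrades mucin, the glycoprotein that forms intestinal mucus, and uses its sugars as a carbon and nitrogen source. Mucispirillum schaedleri is a spiral-shaped resident of the mucus of rodents that respires nitrate and grows on small molecules rather than on mucin itself. The comparison asked whether each genus took a different share of reads after FO, and whether the same mice carried more of both.

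Akkermansia was present at either a trace or a substantial level, with nothing between. In 11 mice it held 2 to 8 reads, a share of 0.00456% to 0.0159%, and in the other 9 mice it held 31 to 923 reads, a share of 0.151% to 2.09%. The lowest share of the upper set was 9.51 times the highest of the lower set. The upper set was made up of 8 FO mice and 1 control mouse, control replicate 1. Because the lower set rests on so few reads, its values have no usable order. In control replicate 8, for example, 2 reads gave 0.00456% with a 95% Wilson interval from 0.00125% to 0.0166%. Amplified copies of one molecule are counted as separate reads, so these intervals hold counting error and nothing else.

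In batch E53B, Akkermansia separated the groups completely. The 5 FO mice, replicates 6 to 10, held 0.18%, 2.09%, 0.429%, 0.151% and 0.253% of reads. The 5 control mice of that batch, replicates 6 to 10, held 0.0129%, 0.0109%, 0.00456%, 0.00544% and 0.00486%. The lowest FO mouse was thus 11.7 times the highest control mouse, and the batch means differed 80.1-fold, at 0.62% ± 0.828 against 0.00774% ± 0.0039 (SD, n = 5 each). FO replicate 7 alone accounted for most of that FO mean, as the median FO mouse held 0.253%. The difference of 0.612 percentage points had an exact permutation p of 0.00794, the smallest that 5 against 5 mice can give, and an adjusted p of 0.0329 over the 83 genera whose mean share reached 0.01%. In this batch 32.5% of those genera were called by the same test, and in 19.3% every FO mouse lay above every control mouse, as it did for both Akkermansia and Mucispirillum.

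In batch E56A, the same genus followed the treatment only in part. FO replicates 1, 2 and 3 held 1.82%, 1.34% and 1.61%, whereas FO replicates 4 and 5 held 0.0159% and 0.00561%. Control replicate 1 held 0.992%, and control replicates 2 to 5 held 0.0122%, 0.00953%, 0.00531% and 0.00546%. The FO mean was 0.959% ± 0.882 and the control mean 0.205% ± 0.44 (SD, n = 5 each), and the groups overlapped, with 2 FO mice at trace level like 4 of the control mice. The difference of 0.754 percentage points, as large as in E53B, stayed within the mouse-to-mouse spread (exact permutation test, p = 0.0794, adjusted p = 0.247 over 83 genera). This test called 0% of the 83 genera in E56A, where 19 had an unadjusted p under 0.05.

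The sample titles carry a number beside the batch. In E56A the 4 mice with Akkermansia at 0.992% or more carried the numbers 41 to 44, which are control replicate 1 followed by FO replicates 1 to 3. The 6 mice at trace level carried the numbers 45 to 50, namely FO replicates 4 and 5 and control replicates 2 to 5. In E53B the FO mice carried the numbers 31 to 35 and the control mice 36 to 40, so the number and the treatment cannot be told apart there. The labels do not say what the numbers stand for, and their part in the Akkermansia levels was not tested.

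**Figure D1:**
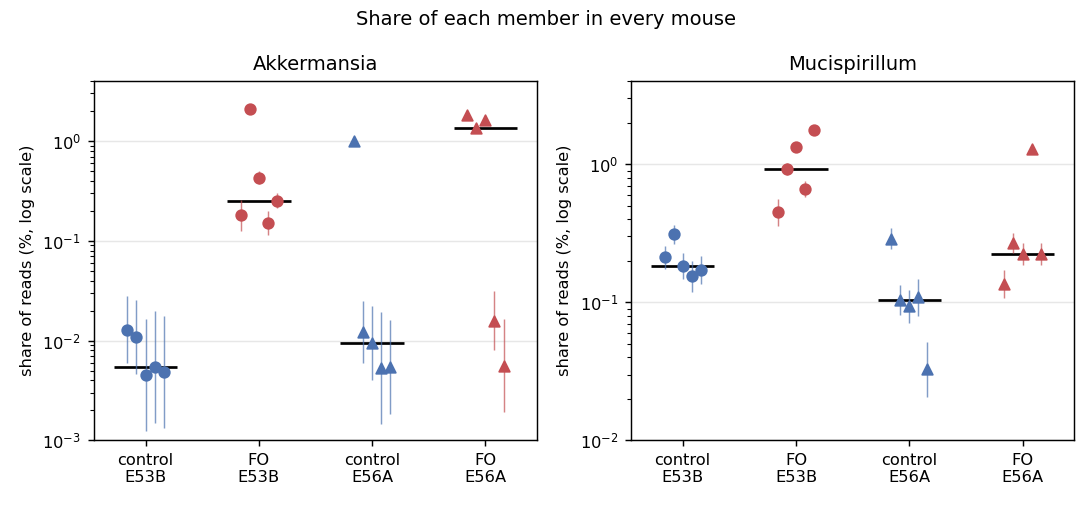
Share of reads per mouse (%, log scale) for Akkermansia (left) and Mucispirillum (right) in the 4 combinations of treatment and batch, 5 mice each. Points are mice, thin vertical lines are 95% Wilson intervals and horizontal bars are medians. Akkermansia lies either at or under 0.0159% or at or over 0.151%, while Mucispirillum spreads without a gap of that size.

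Over both batches, Akkermansia averaged 0.79% ± 0.826 in FO mice (SD, n = 10; lowest 0.00561%, median 0.341%, highest 2.09%). In control mice it averaged 0.106% ± 0.311 (SD, n = 10; lowest 0.00456%, median 0.00749%, highest 0.992%). In total 4 of 10 FO mice lay above every control mouse, and 9 of 10 lay above the control median. The difference of 0.683 percentage points had an unadjusted p of 0.0303 and did not pass after adjustment over 83 genera (two-sided permutation test, adjusted p = 0.0676). Of these genera, 41% were called. On the log2 scale, where the few high mice weigh less, the difference was 4.35 and passed (permutation test, adjusted p = 0.0126), but as a centred log ratio, taken against the mean log2 count of the 83 genera in the mouse, it was 3.34 and did not (adjusted p = 0.0849). Leaving out control replicate 1 alone also brought the share difference past the threshold, at 0.782 percentage points (adjusted p = 0.0203), as did leaving out FO replicate 4, 5 or 6 (adjusted p = 0.0467, 0.0388 and 0.0463).

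The number of mice with the genus at 0.1% or more, a level inside the gap between the sets, was 8 of 10 in FO and 1 of 10 in control (Fisher's exact test, two-sided, p = 0.00548). By batch it was 5 of 5 against 0 of 5 in E53B (Fisher's exact test, p = 0.00794) and 3 of 5 against 1 of 5 in E56A (p = 0.524). The level of 0.1% was chosen with the shares known. A threshold of 0.01% gave 9 against 4 mice (Fisher's exact test, p = 0.0573), one of 1% gave 4 against 0 (p = 0.0867), and more than 3 reads gave 9 against 5 (p = 0.141).

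In the count model of edgeR, Akkermansia did not pass the filter on low counts, because it had substantial counts in only 9 mice. The fit without a filter gave a log2 fold change of 3.57 ± 1.12 (SE; FO over control, batch as a term; edgeR quasi-likelihood test, adjusted p = 0.0440 over 149 genera). In that fit 8.05% of genera were called. The call was lost with RLE scaling (3.36, edgeR adjusted p = 0.069), without the batch term (2.37, edgeR adjusted p = 0.16) and when any of 15 single mice was left out, with adjusted p up to 0.0931. It held without control replicate 1, FO replicate 4, 5, 9 or 10, and without control replicate 1 the estimate was 5.88 (edgeR adjusted p = 1.34e-05). In E53B alone the genus passed the filter only through the FO mice, since the control mice held 2 to 6 reads. Its change in that fit was 5.33 ± 0.83 (SE, edgeR over 61 genera, of which 19.7% were called). Entry to that fit depended on the group in which the genus was high, so no p-value is drawn from it. Without the filter the change was 5.73 ± 0.89 in E53B (SE, edgeR adjusted p = 0.000301 over 142 genera). In E56A alone the fit without a filter gave 1.81 ± 1.31 (SE, edgeR adjusted p = 0.512).

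Mucispirillum was found in every mouse at a measurable level, from 18 to 879 reads. In batch E53B the FO mice, replicates 6 to 10, held 0.447%, 0.928%, 1.33%, 0.662% and 1.76% of reads. The control mice of E53B held 0.211%, 0.31%, 0.182%, 0.155% and 0.17%. All 5 FO mice lay above all 5 control mice, the lowest FO mouse at 1.44 times the highest control mouse. The means of 1.03% ± 0.527 and 0.206% ± 0.0618 (SD, n = 5 each) differed 4.99-fold (exact permutation test, p = 0.00794, adjusted p = 0.0329 over 83 genera).

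Batch E56A held less of this genus and a smaller difference. FO replicates 1 to 5 held 0.136%, 0.268%, 0.225%, 1.28% and 0.224%, and control replicates 1 to 5 held 0.29%, 0.105%, 0.0934%, 0.109% and 0.0328%. FO replicate 4 stood apart from the other 4 FO mice, which all lay below control replicate 1, while all 5 FO mice lay above the 4 remaining control mice. The means were 0.427% ± 0.48 and 0.126% ± 0.0965 (SD, n = 5 each), a difference of 0.301 percentage points that stayed within the mouse-to-mouse spread (exact permutation test, p = 0.0873, adjusted p = 0.247). For comparison, 7.23% of genera in E56A had every FO mouse above every control mouse, and neither member was among them.

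Over both batches, Mucispirillum rose with FO, from 0.166% ± 0.0873 (SD, n = 10; lowest 0.0328%, median 0.163%, highest 0.31%) to 0.726% ± 0.571 (SD, n = 10; lowest 0.136%, median 0.554%, highest 1.76%). This difference of 0.561 percentage points passed (two-sided permutation test, adjusted p = 0.00952), also with permutations kept within batches (adjusted p = 0.00387), and 6 of 10 FO mice lay above every control mouse. The same test called 41% of the 83 genera, 30 of them higher and 4 lower with FO. The Mucispirillum call was lost as a centred log ratio (0.87, permutation test, adjusted p = 0.215) and as a share of the reads outside Bacteroidota (0.845 percentage points, adjusted p = 0.334). Leaving out any 1 mouse kept the call, with differences from 0.445 to 0.626 percentage points. In edgeR the log2 fold change was 1.34 ± 0.39 (SE, adjusted p = 0.0163), in a fit that called 22% of 59 genera. That call was lost without FO replicate 4 (0.94, edgeR adjusted p = 0.0726), without FO replicate 10 (1.11, adjusted p = 0.0505) and without control replicate 2, 4, 5, 8 or 9 (1.07 to 1.12, adjusted p from 0.0622 to 0.0867). It was called in E53B alone (1.37 ± 0.38, edgeR adjusted p = 0.0198) and not in E56A alone (1.16 ± 0.63, adjusted p = 0.337), where edgeR called 0% of 62 genera and 11 had an unadjusted p under 0.05.

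**Figure D2:**
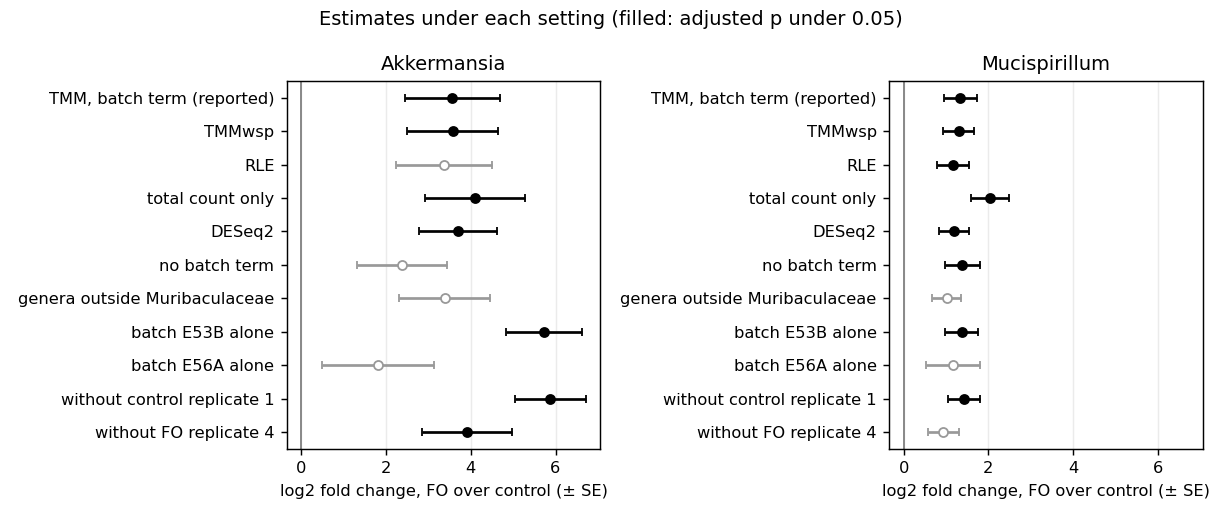
Log2 fold change of FO over control (edgeR or DESeq2, points with SE bars) for Akkermansia, fitted without a filter on low counts, and Mucispirillum, fitted with it, under 11 settings each. Filled points have an adjusted p under 0.05. Every estimate lies above 0, and the Akkermansia estimates range more widely, from 1.81 in batch E56A alone to 5.88 without control replicate 1.

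The estimates differed between batches, but no difference passed a test of its own. For Akkermansia the edgeR interaction of treatment and batch was −3.81 ± 1.79 on the log2 scale, a smaller rise in E56A (SE; fit without a filter, p = 0.0419, adjusted p = 0.417). Control replicate 1 decided this value, which turned to 0.53 without that mouse (edgeR, unadjusted p = 0.72), and without FO replicate 7 it was −2.39 (edgeR, unadjusted p = 0.174). For Mucispirillum it was −0.41 ± 0.77 (SE, edgeR adjusted p = 0.84). By exact permutation of the batch within each treatment, the share effects in E53B and E56A differed by −0.142 percentage points for Akkermansia (p = 0.823) and by 0.519 percentage points for Mucispirillum (p = 0.159), the latter also not passing over the 6 measures tested this way (adjusted p = 0.649). Within FO, the mean Mucispirillum share was 0.599 percentage points higher in E53B than in E56A (exact permutation test, p = 0.0952). Among control mice it was 0.08 percentage points higher (exact permutation test, p = 0.175).

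Ordered by their medians, the 4 combinations of treatment and batch ran differently for each genus. For Akkermansia the order was control E53B at 0.00544%, control E56A at 0.00953%, FO E53B at 0.253% and FO E56A at 1.34%. The means of the control batches (exact permutation test, p = 0.468) and of the FO batches (p = 0.524) did not differ beyond their spread, and control replicate 1 at 0.992% made the middle pair overlap. For Mucispirillum it was control E56A at 0.105%, control E53B at 0.182%, FO E56A at 0.225% and FO E53B at 0.928%. Neighbours in this second order overlapped at every step. The batch with more Mucispirillum after FO was thus the one with the lower Akkermansia median.

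The mice that carried the most Akkermansia were not those that carried the most Mucispirillum. FO replicate 7 held the highest Akkermansia share at 2.09% and 0.928% Mucispirillum, whereas FO replicate 10 held the highest Mucispirillum share at 1.76% and 0.253% Akkermansia. In E56A the 3 FO mice with 1.34% to 1.82% Akkermansia held 0.136% to 0.268% Mucispirillum. FO replicate 4, with 8 Akkermansia reads, held 645 Mucispirillum reads, and FO replicate 5 was low in both, with 3 and 120 reads. The summed share of both genera was 1.52% ± 0.806 in FO and 0.272% ± 0.363 in control mice (SD, n = 10 each), and 7 of 10 FO mice lay above every control mouse in this sum, which is given without a test.

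**Figure D3:**
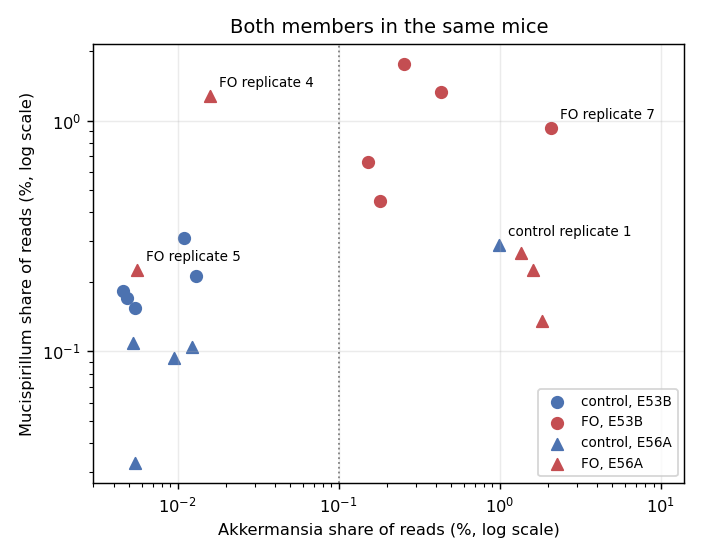
Mucispirillum share against Akkermansia share of reads in each of the 20 mice (%, both axes log scale), coloured by treatment and shaped by batch. The dotted line marks 0.1% Akkermansia. To its right the E53B mice lie above the E56A mice, and FO replicate 4 lies at the top left with 0.0159% Akkermansia and 1.28% Mucispirillum.

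Since the Akkermansia shares fell into separate sets, no correlation between the genera was tested over all mice. Among the 8 FO mice at 0.1% or more, log2 shares of the genera gave Pearson's r = −0.52 (exact permutation test, p = 0.176) and Spearman's rho = −0.36 (exact p = 0.389). Without the 2 mice farthest from the median Akkermansia share, r was −0.74 over 6 mice. Once each batch was set to its own mean the sign turned, to r = 0.21 (permutation within batches, p = 0.728) and rho = 0.21 (p = 0.652), so the negative sign did not hold once the batches were set level. Among the 11 mice under 0.1%, whose Akkermansia shares have no usable order, r was 0.52 (permutation test, p = 0.0926) and fell to 0.11 without the 2 farthest mice. Over the 9 relations computed, the adjusted p for these 3 values of r ran from 0.208 upwards.

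The ratio of the members within a mouse does not depend on the total number of reads. In E53B the 5 control mice held 0.025 to 0.0612 Akkermansia reads per Mucispirillum read, and the FO mice 0.143 to 2.25. The mean log2 ratio there rose from −4.59 to −1.34, and the groups did not overlap (exact permutation test, p = 0.00794). In E56A the FO mice held both the highest and the lowest ratios, 13.4 in FO replicate 1 and 0.0124 in FO replicate 4. The log2 difference there was 1.68 and did not exceed the spread (exact permutation test, p = 0.484). Over both batches it was 2.47 (permutation test, p = 0.0632, adjusted p = 0.105 over 5 ratios).

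**Figure D4:**
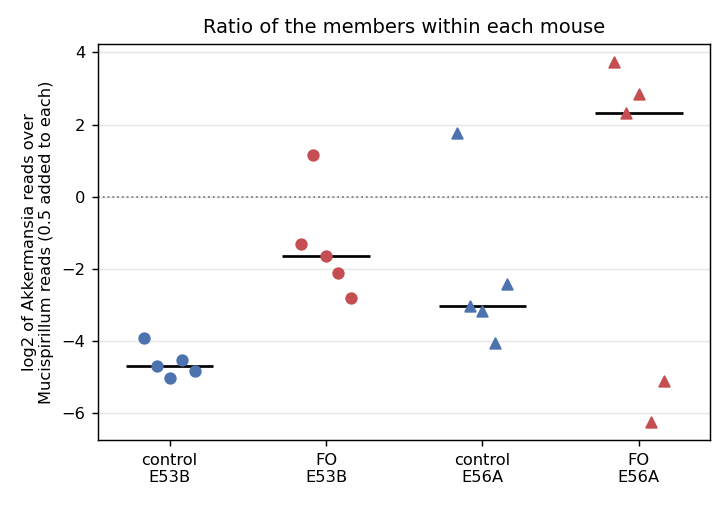
Log2 of Akkermansia reads over Mucispirillum reads per mouse, with 0.5 added to each count, in the 4 combinations of treatment and batch (5 mice each, bars are medians). The dotted line marks equal reads. The FO mice of E56A lie either at 2.32 or higher or at −5.11 or lower.

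Bilophila, a genus that reduces the sulfite released from taurine, gave a reference that moved more evenly. Its share was higher in all 10 FO mice than in any control mouse. Against it, Mucispirillum had a mean log2 ratio of −1.59 ± 0.83 in control and −1.69 ± 1.15 in FO mice, a difference within the spread (SD, n = 10 each; permutation test, p = 0.831). The difference was 0.55 in E53B (exact permutation test, p = 0.143) and −0.74 in E56A (exact p = 0.333). Akkermansia over Bilophila differed by 2.37 on the log2 scale (permutation test, p = 0.0582, adjusted p = 0.105) and by 3.80 in E53B, where the groups did not overlap (exact permutation test, p = 0.00794), but by 0.94 in E56A (exact p = 0.69).

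Muribaculaceae, the family of fiber- and mucin-degrading Bacteroidales that dominated these samples, fell from 78.9% ± 5.61 in control to 53.4% ± 9.12 in FO mice (SD, n = 10 each). Shares of one total are coupled, so each member was also expressed as a share of the reads outside this family. Mucispirillum then measured 0.759% ± 0.33 in control and 1.51% ± 1.08 in FO mice (SD, n = 10 each), a 1.99-fold rather than 4.38-fold difference of means that did not pass (permutation test, p = 0.0454, adjusted p = 0.31 over 75 genera). Akkermansia measured 0.321% ± 0.888 and 1.65% ± 1.76 (permutation test, p = 0.034, adjusted p = 0.283). On this scale 0% of the 75 genera were called, and 11 had an unadjusted p under 0.05. In edgeR restricted to genera outside the family, the changes were 1.02 ± 0.34 for Mucispirillum (SE, adjusted p = 0.0842 over 47 genera) and 3.38 ± 1.06 for Akkermansia (SE, no filter, adjusted p = 0.0915 over 141 genera).

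By batch, neither member passed on this scale. In E53B Akkermansia was higher in every FO mouse than in every control mouse, at 0.323% to 4.59% against 0.0234% to 0.0561% (exact permutation test, p = 0.00794, adjusted p = 0.198 over 75 genera). That p is the smallest that 5 against 5 mice can give. Whether it passes after adjustment therefore depends on how many other genera reach it. In E56A the groups overlapped, with FO replicates 4 and 5 at trace level, and the Akkermansia difference stayed within the spread (exact permutation test, p = 0.286, adjusted p = 0.812). For Mucispirillum in E53B the FO mice held 1.07%, 2.04%, 2.53%, 1.41% and 3.67% and the control mice 0.917%, 1.43%, 1.02%, 0.744% and 0.817%, so that 3 of 5 FO mice lay above all control mice (exact permutation test, p = 0.0238, adjusted p = 0.255). In E56A the Mucispirillum values of FO replicates 1 to 5 were 0.304%, 0.546%, 0.414%, 2.19% and 0.908%, and those of control replicates 1 to 5 were 0.831%, 0.597%, 0.422%, 0.569% and 0.248%. Apart from FO replicate 4 and FO replicate 5 the FO mice there lay within the control range (exact permutation test, p = 0.476).

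The Mucispirillum share was higher in mice with a lower Muribaculaceae share, a relation that did not pass adjustment. With the mean of each treatment and batch removed, the Muribaculaceae share and the log2 Mucispirillum share gave r = −0.63 (permutation within the 4 combinations, n = 20, p = 0.0404, adjusted p = 0.144 over 9 relations) and rho = −0.61 (p = 0.0147, adjusted p = 0.133). Without the 2 mice farthest in the Muribaculaceae share r was −0.71. It was −0.69 in E53B (permutation test, p = 0.0751) and −0.64 in E56A (p = 0.0749). Within control mice r was −0.69 (permutation test, p = 0.0482) and fell to −0.37 without the 2 farthest mice, and within FO mice it was −0.42 (p = 0.23) and fell to −0.08. With batch means removed, r within FO mice was −0.53 (permutation within batches, p = 0.25) and −0.44 without the 2 farthest mice, and rho was −0.68 (unadjusted p = 0.0396). Within control mice r was then −0.86 (permutation within batches, unadjusted p = 0.0392) and fell to −0.14. Mucispirillum and Muribaculaceae are shares of one total, and with Mucispirillum as a share of the reads outside Muribaculaceae r was −0.32 (permutation test, p = 0.376). Measured the same way, Mucispirillum had the third most negative r of 75 genera outside the family, whose median was −0.24.

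For Akkermansia the relation was tested only within its sets of mice. Among the 8 FO mice at 0.1% or more r was −0.24 (exact permutation test, p = 0.547) and rho −0.07 (exact p = 0.882). The sign of r turned to 0.37 without the 2 farthest mice. Among the 11 mice at trace level r was −0.58 (permutation test, p = 0.0204, adjusted p = 0.144 over 9 relations) and fell to −0.12 without the 2 farthest mice, FO replicate 4 with 41.5% Muribaculaceae among them. The trace shares have no usable order, so this r cannot decide the relation. The 9 mice with substantial Akkermansia all held 65.2% Muribaculaceae or less. Of the 11 others, 10 held 75.3% or more and FO replicate 4 was the exception. This split largely followed treatment, since 8 of the 9 were FO mice and 9 of the 11 were control mice.

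**Figure D5:**
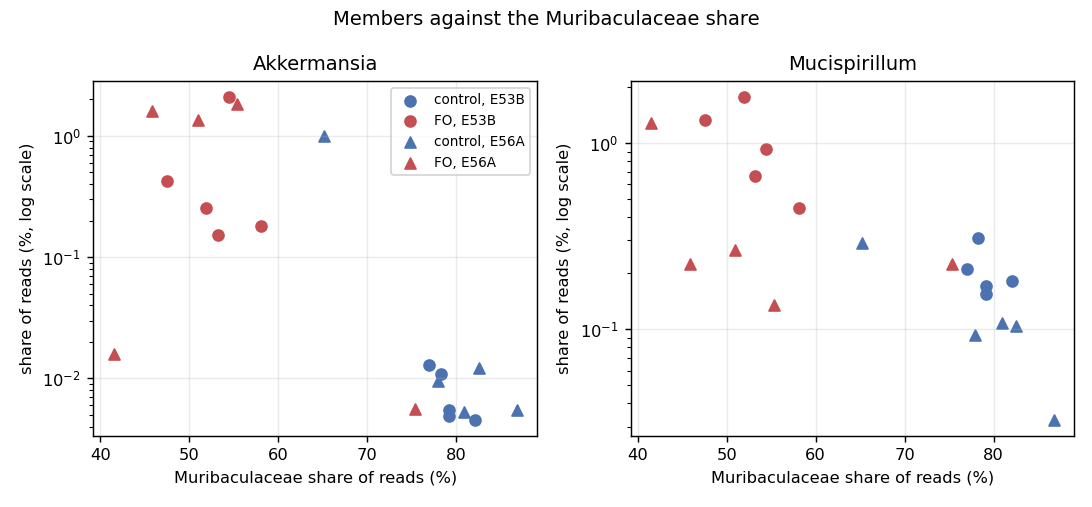
Share of Akkermansia (left) and Mucispirillum (right) in percent of reads (log scale) against the Muribaculaceae share (%), 1 point per mouse. Mice with substantial Akkermansia lie at 65.2% Muribaculaceae or less, and the 6 mice with the most Mucispirillum, all FO, lie at 58.1% or less.

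Among 33 other genera whose mean share reached 0.1%, those whose share was ordered most like Akkermansia over the 20 mice were Alistipes_A_871400 (Spearman's rho = 0.88), Bacteroides_H (0.79), Muribaculaceae with no genus name (0.72) and Borkfalkia (0.71). Within FO and within control mice the value was 0.56 and 0.48 for Bacteroides_H, 0.36 and 0.12 for the unnamed Muribaculaceae and 0.49 and 0.52 for Borkfalkia. Mucispirillum came at rank 9 of the 33, with 0.54 over the 20 mice, −0.14 within FO and 0.26 within control mice, given without a test. Bacteroides is known for breaking down complex glycans of the diet and of mucus. In E56A the 4 mice with substantial Akkermansia held 12.2% to 22.1% Bacteroides_H and the other 6 held 2.8% to 14.1%. The lowest values were those of UBA7173 (−0.72) and Muribaculum (−0.69), both of Muribaculaceae. Within FO and within control mice they were weaker, at −0.31 and −0.26 for UBA7173 and −0.18 and −0.15 for Muribaculum. These 20 points share treatment, batch and the total of each library, and the order among the trace mice rests on 2 to 8 reads.

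Mucispirillum was ordered most like Dysosmobacter (rho = 0.77), Lawsonibacter (0.76), Kineothrix (0.75) and Muribaculaceae with no genus name (0.73), of which the first pair belong to Oscillospiraceae and Kineothrix to Lachnospiraceae, families of anaerobic Clostridia. Within FO mice alone rho was 0.71, 0.87, 0.50 and 0.61 in that order. With centred log ratios it was 0.64, 0.53, 0.58 and 0.10 over the 20 mice, so the likeness to the unnamed Muribaculaceae was not seen there. The lowest values were those of CAG-873 (−0.82), the most abundant genus of Muribaculaceae here, and Duncaniella (−0.56). For CAG-873 rho stayed at −0.81 within FO and −0.75 within control mice, whereas for Duncaniella it was −0.04 and 0.03. None of the 4 leading genera of Mucispirillum led the list for Akkermansia except the unnamed Muribaculaceae entry.

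Of 11 further genus names known for growth on or near mucus, 12 entries were in the table, 8 held a read and 4 could be tested in edgeR. Bilophila was the 1 that rose (log2 fold change 1.10 ± 0.28, SE, edgeR adjusted p = 0.00739), and 0 fell, in a fit that called 22% of all genera tested. Bacteroides_H changed by 0.14 ± 0.32 (SE, adjusted p = 0.826), Alistipes_A_871400 by 0.12 ± 0.24 (adjusted p = 0.81) and Parabacteroides_B_862066 by −0.21 ± 0.47 (adjusted p = 0.826). The median edgeR change over the 4 tested was 0.13, against 0.23 over all 59 genera tested. As plain shares of reads, Bacteroides_H averaged 10.7% ± 5.45 in FO and 5.87% ± 4.53 in control mice (SD). Alistipes_A_871400 averaged 2.45% ± 1.04 and 1.35% ± 0.415, and Parabacteroides_B_862066 0.046% ± 0.0323 and 0.0333% ± 0.0174. These shares are given without a test, and the edgeR changes hold for its scaling. Prevotella and Ruminococcus_B held 51 and 35 reads in all, Bifidobacterium_388775 and Helicobacter_C_479931 held 2 reads each, and Desulfovibrio_R_446353, Phocaeicola_A_858004, Alistipes_A_871404 and Helicobacter_A_479689 held 0 reads.

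The shallowest library, FO replicate 6, had 17218 reads, and the deepest, control replicate 2, had 57415. A count of 0 would allow a share of up to 0.0174% in the former and 0.00523% in the latter. Drawing every sample down to the smallest total gave differences of 0.685 percentage points for Akkermansia and 0.558 for Mucispirillum. The labels name the samples as separate mice of a group without a cage or litter, so the p-values measure the spread between these samples.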

How the data were processed

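According to the methods of the study, V4 amplicons were sequenced as read pairs on a MiSeq, trimmed with cutadapt, merged with vsearch, quality-filtered, cleared of chimeras, clustered into operational taxonomic units and named from Greengenes2 with a Naive Bayes classifier; such steps set which reads reach a genus. The authors deposited whole-number read counts per taxon, not normalized; the genus and species tables were used. Members and lists were chosen with earlier results of these data known. Shares were percentages of all reads (no-genus reads, a mean of 7.72%, stayed in). Share differences used permutation tests (100000 resamples; exact within a batch), adjusted by Benjamini-Hochberg over genera whose mean share reached 0.01%. Log ratios used a pseudocount of 0.5. Genera were fitted with edgeR 4.0.16 (TMM, filterByExpr, batch, quasi-likelihood test; limma 3.58.1, R 4.3.3); DESeq2 1.42.0 was an alternative. Python 3.11.15, numpy 2.4.6, pandas 2.3.3 and scipy 1.17.1 were used. Akkermansia failed the filter, so its fit without one is reported, a choice made after seeing the data, as was taking its correlations within sets of mice in place of all 20. Tested on simulated counts with 4-fold changes, edgeR recovered 90.3% of changed genera with the filter (median of 55.5 tested) and 64.2% without (median of 147 tested), with 9.82% false calls in the latter. Genera named are the members, Bilophila, Muribaculaceae, the 4 most and 2 least alike by Spearman's rho, and a list of mucus genera. No pair of samples of a group agreed within counting noise (lowest chi-square per degree of freedom 6.51). The within-group likeness values of Alistipes_A_871400 are not reported here.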

Additional observations from a re-analysis of the deposited data

Results flagged for a closer look

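In 4 of 12 overlapping sets of mice checked (each genus by treatment, over both batches and in each), 1 mouse stood far from the rest of its set, and these were 3 different mice. The criterion flags about 1 in 20 independent groups by chance, and these sets share mice. Control replicate 1 held 0.992% Akkermansia, against 0.00456% to 0.0129% in the other 9 control mice, and stood apart likewise among the 5 control mice of E56A, where the other 4 held 0.00531% to 0.0122%. FO replicate 7 held 2.09% Akkermansia, against 0.151% to 0.429% in the other 4 FO mice of E53B. FO replicate 4 held 1.28% Mucispirillum, against 0.136% to 0.268% in the other 4 FO mice of E56A.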

How the results depend on the processing

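Every alternative kept both genera higher with FO in the share and edgeR estimates. Within a batch these shares compare means. In E56A outside Muribaculaceae the median Mucispirillum share was not higher, at 0.546% in FO and 0.569% in control mice. No paired analysis was possible because the labels carry no replicate numbers that link control and FO mice. The Akkermansia share difference ran from 0.539 to 0.782 percentage points with 1 mouse left out and passed as log2 (4.35) and in E53B alone (0.612). It also passed without control replicate 1 and FO replicate 5 (0.869). These were the control mouse with the highest and the FO mouse with the lowest share, so leaving them out can only widen the difference. The Akkermansia call rests on no such choice of mice. It did not pass as a centred log ratio (3.34, adjusted p = 0.0849), outside Muribaculaceae (1.33) or outside Bacteroidota (1.87, adjusted p = 0.334). The Mucispirillum share difference ran from 0.445 to 0.626 with 1 mouse left out. It did not pass as a centred log ratio (0.87), outside Muribaculaceae (0.749; without FO replicate 4, 0.673; E53B, 1.16; E56A, 0.339), outside Bacteroidota (0.845) or in E56A alone (0.301). In edgeR, with 1 mouse left out, Akkermansia ran from 2.86 to 5.88 and Mucispirillum from 0.94 to 1.54. The Akkermansia call was lost with RLE (3.36), without the batch term (2.37), in E56A alone (1.81) and outside Muribaculaceae (3.38). The Mucispirillum call was lost in E56A alone (1.16; total count scaling, 1.76) and outside Muribaculaceae (1.02; total count scaling, 0.92). The Mucispirillum interaction ran from −1.23 to 0.024 with 1 mouse left out, the last without FO replicate 10, and that of Akkermansia, in fits without a filter, from −4.19 to 0.53, the last without control replicate 1. The excess of FO mice with Akkermansia was 5 at 0.01%, 4 at 1%, 4 above 3 reads and 0 above 0 reads, none passing. The r of Akkermansia with Mucispirillum turned to 0.21 with batch means removed and was 0.52 among the trace mice; that of Akkermansia with Muribaculaceae turned to 0.37 without the 2 farthest mice and was −0.58 among the trace mice. The r of Mucispirillum with Muribaculaceae, whose p was under 0.05 only before adjustment, had an unadjusted p of 0.05 or more without log (−0.48), outside Muribaculaceae (−0.32), within FO (−0.42; batch means removed, −0.53), in E53B (−0.69) or in E56A (−0.64). In E53B alone the log2 ratios differed by 3.26 (Akkermansia over Mucispirillum), 3.80 (Akkermansia over Bilophila; 0.94 in E56A) and 0.55 (Mucispirillum over Bilophila, of opposite sign to the whole). The settings outside Muribaculaceae in edgeR, in single batches or without FO replicate 4, the total count fits of single batches, the correlations within sets of mice or with batch means removed for FO or control, and the interaction and ratio alternatives were chosen after seeing the data. For trace Akkermansia the depth of 2 to 8 reads is the limit. Where a call was lost, the cause was not tested.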
